A study of Mus musculus and Homo sapiens with 67 samples.

Results

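The combination of tazemetostat and RMC-6236 was compared with control in PSN1 cells, an established human pancreatic cancer line, by RNA-seq. The comparison used 6 of the 67 samples of the series, 3 libraries of cells given the combination and 3 of cells given the solvent DMSO. Of the 60564 genes in the deposited PSN1 table, 13358 were tested, those with at least 1 FPKM (fragments per kilobase of transcript, scaled to library size) in 3 or more of the 12 PSN1 libraries. The other 6 PSN1 libraries, 3 with RMC-6236 alone and 3 with tazemetostat alone, served to place each value between the single drugs. The same arms were also measured in SW1990 cells, another human pancreatic cancer line. All PSN1 arms share the 1 line and no genetic change separates them. Neither dose nor treatment time is in the labels, and they do not say that the libraries came from separate cultures, so the p-values measure only the spread between these libraries, which may be technical.

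RAS proteins are switches that, bound to GTP, drive the RAF-MEK-ERK kinase cascade and with it transcription of growth genes. RMC-6236 binds the active form of several RAS proteins and blocks their signal. EZH2 is the methyltransferase of polycomb repressive complex 2 (PRC2), which places a repressive methyl mark on lysine 27 of histone H3, and tazemetostat inhibits its catalytic activity. Genes silenced by that mark in tumour cells include developmental regulators and, in several cancers, genes of antigen presentation.

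The combination libraries were alike, with correlations of log2(FPKM + 1) of 0.994 to 0.995 among themselves, 0.995 among the control libraries and 0.874 to 0.876 between the arms. Genes at 1 FPKM or more numbered 12743 to 12772 in combination libraries and 11632 to 11653 in control libraries. Mitochondrially encoded genes held 26.1% to 26.9% of all FPKM in combination libraries and 22.7% to 23.2% in control libraries. FPKM keep no read totals, so depth is unknown. All 8 pancreatic duct and epithelial markers were detected, with summed levels of 670 to 676 FPKM in combination libraries and 620 to 633 FPKM in control libraries. Of 8 leukocyte markers 4 (PTPRC, CD3D, CD3E and MS4A1) were listed at 0 in all 6 libraries and 1 reached 1 FPKM, the monocyte marker CD14, at 7.47 to 8.40 FPKM in combination libraries and 9.26 to 9.46 FPKM in control libraries. The integrin ITGAM was at 0.851 to 0.918 FPKM in combination libraries and 0.0185 to 0.0537 FPKM in control libraries, and the 8 summed to 8.41 to 9.34 FPKM with the combination and 9.42 to 9.69 FPKM in control. Of 7 endothelial markers 2 (CLDN5 and EMCN) were at 0 in all 6 libraries, PECAM1 was at 0.518 to 0.595 FPKM in combination libraries and 0.549 to 0.616 FPKM in control libraries, and KDR, the only one to reach 1 FPKM, was at 1.53 to 2.09 FPKM in combination libraries and 4.63 to 5.53 FPKM in control libraries. The endothelial sums were 2.17 to 2.63 FPKM with the combination and 5.26 to 6.08 FPKM in control. Of 8 fibroblast markers 6 reached 1 FPKM, with sums of 119 to 122 FPKM in combination libraries and 29.5 to 29.8 FPKM in control libraries.

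EZH2 encodes the methyltransferase that tazemetostat inhibits, and its RNA was lower with the combination than in control. EZH2 was at 7.81, 7.34 and 7.75 FPKM in combination libraries, against 15.8, 16 and 15.4 FPKM in control libraries. All 3 combination values lay below all 3 control values, and EZH2 fell by 0.96 ± 0.05 log2 units (± standard error; limma with Benjamini-Hochberg adjustment, adjusted p = 4.6e-10). Of the RAS genes, HRAS fell to 14.3 FPKM with the combination, against 22.1 FPKM in control, while NRAS rose by 0.15 log2 units. EZH2 was also lower in the combination than with either drug alone. It averaged 9.77 FPKM with RMC-6236 alone and 15.3 FPKM with tazemetostat alone.

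limma called 11037 of the 13358 genes, or 82.6%, with 6079 higher (45.5%) and 4958 lower (37.1%) in combination than in control. Differences are in units of log2(FPKM + 1), where the added 1 shrinks the change of genes near 0, and every rise, fall, median and value in parentheses after a gene below is such a log2 difference between combination and control. At 1 log2 unit or more 1360 genes rose (10.2%) and 808 fell (6.05%), and the median over all genes tested was 0.07. With so many calls, a count within a gene group is read against these percentages. The 3 libraries of each arm did not overlap in 6134 genes higher (45.9%) and 5031 genes lower (37.7%) with the combination. The filter took in 1093 genes that reached 1 FPKM in all combination and in no control library, and 215 the other way round, which differ by construction. Among the lists described below such genes, high with the combination, were 3 of 13 acute phase, 6 of 17 complement, 4 of 20 FOXO, 3 of 24 chemokine and cytokine, 4 of 31 developmental and 3 of 21 TGF-beta and BMP genes. They were also 3 of 15 checkpoint, 2 of 18 NRF2, 2 of 35 autophagy, 2 of 26 matrix and 2 of 19 HOX genes. Receptor tyrosine kinases held 2 of 17, RAS regulators 2 of 22 and fibroblast markers 2 of 6. The MHC class I, BH3-only, NF-kB, ATF4, mesenchymal and classical subtype lists held 1 each. High in control were 4 of 31 DNA replication, 2 of 29 RAS-MAPK, 2 of 11 EGFR ligand and 2 of 15 checkpoint genes. The developmental, chemokine, basal-like, YAP and matrix lists held 1 each. In the plot of difference by level the genes of steepest rise include liver-type secreted proteins, and those of steepest fall include ERK targets.

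**Figure D1:**
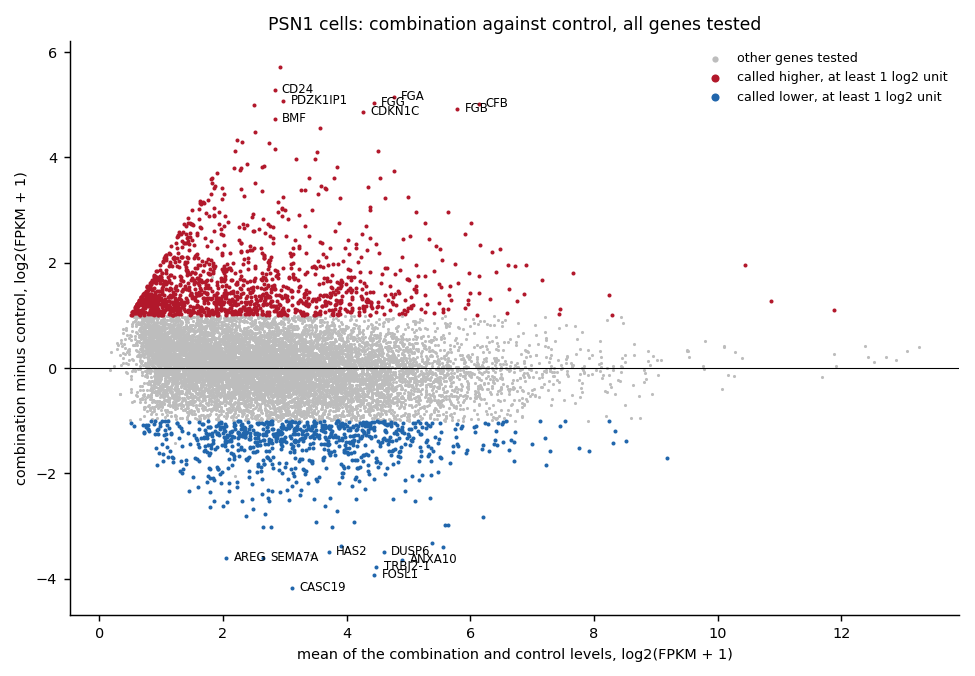
Difference between combination and control (y axis, log2(FPKM + 1) units) against the mean level of the 2 arms (x axis, log2(FPKM + 1)) for the 13358 genes tested in PSN1 cells. Red points are the 1360 genes called higher and blue points the 808 called lower by at least 1 log2 unit, grey points are all others, and the 8 genes of largest rise and of largest fall by the naming rule are labelled.

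Fibrinogen, the clotting protein that liver cells secrete as 3 chains in the acute phase response, was among the steepest rises. The alpha chain gene FGA was at 163, 159 and 159 FPKM in combination libraries, against 3.83, 3.58 and 3.24 FPKM in control libraries, and rose by 5.15 ± 0.05 (adjusted p = 1.2e-16). FGG, the gamma chain, was at 124, 123 and 122 FPKM in combination libraries and 2.43, 2.98 and 2.97 FPKM in control libraries. FGB, the beta chain, was at 301, 305 and 304 FPKM in combination libraries and 8.71, 9.47 and 9.02 FPKM in control libraries. For all 3 chains every combination library lay far above every control library, with rises of 5.15, 5.03 and 4.92 log2 units. Each chain was also higher than with either drug alone: FGA averaged 36.4 FPKM with RMC-6236 and 8.06 FPKM with tazemetostat.

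Other acute phase proteins, which the liver releases into plasma in inflammation, rose with fibrinogen. All 13 that passed the filter of 17 in a list rose, 12 of them by 1 log2 unit or more, with a median of 2.70. The list was drawn up after the values were seen, so its count is a description only. SAA1, serum amyloid A, was at 88.6, 97.5 and 95 FPKM in combination libraries, against 3.39, 5.22 and 4.78 FPKM in control libraries. The groups stood well apart, with a rise of 4.13 ± 0.10 (adjusted p = 2.1e-11). Its near copy SAA2 rose by 3.76, and the 2 genes share sequence, so their split is uncertain. LCN2, the iron-sequestering protein lipocalin 2, rose by 2.70, the carrier protein ORM1 by 2.89, the protease inhibitor SERPINA3 by 1.74 and haptoglobin, HP, by 1.26. LBP, which hands bacterial lipopolysaccharide to its receptor, was at 5.02 FPKM with the combination and 0.0315 FPKM in control. SERPINA1 (alpha-1 antitrypsin), already at 121 FPKM in control, rose by only 0.58 to 182 FPKM with the combination. ALB, serum albumin, was at 163, 169.8 and 166 FPKM in combination libraries and 23.8, 23.7 and 23.6 FPKM in control libraries, a rise of 2.76 without overlap.

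Complement, the plasma protease cascade of innate immunity, rose beside them. Of 17 complement genes tested, in a list also drawn up after the values were seen, 14 rose and 2 fell, with a median of 2.47. CFB, complement factor B of the alternative pathway, was at 401, 391 and 398 FPKM in combination libraries, against 11.3, 11.5 and 11.3 FPKM in control libraries. No other gene among the 15 of largest rise was as high with the combination, and CFB rose by 5.01 ± 0.02 (adjusted p = 8.4e-19). C1S, a protease of the first component, was at 55.7, 56.4 and 56.8 FPKM in combination libraries and 1.38, 1.42 and 1.53 FPKM in control libraries. Its neighbour C1R rose by 4.10, the central component C3 by 3.0, factor D (CFD) by 3.39 and factor I (CFI) by 2.33. C4A and C4B rose by 2.69 and 2.47, but they are near copies and their split is uncertain. C1QBP, a mitochondrial protein listed for its binding of C1q, fell by 1.22 log2 units. The regulators at the cell surface moved little: CD59 fell by 0.11, CD55 rose by 0.23, and CD46 was at 20.2 FPKM with the combination and 20.6 FPKM in control (adjusted p = 0.42).

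Further genes of steep rise had other roles. CD24, a glycosylated surface protein, was at 44.5, 42.9 and 42.4 FPKM in combination libraries, against 0.195, 0.0998 and 0.143 FPKM in control libraries. Control cells held almost none, and CD24 rose by 5.27 ± 0.05 (adjusted p = 3.1e-16), the most of the 15. PDZK1IP1, a small membrane protein of epithelia, averaged 44.4 ± 1.6 FPKM with the combination and 0.356 ± 0.16 FPKM in control (SD, n = 3 each) and rose by 5.07. MMP13, collagenase 3, was at 21.7, 21 and 20.2 FPKM in combination libraries and 0.116, 0.112 and 0.118 FPKM in control libraries. TNFAIP6, a hyaluronan-binding protein induced by TNF, rose by 4.16 to 29.4 FPKM with the combination. BPIFB1, a secreted protein of airway epithelium, rose by 4.13, and RASL11A, a small GTPase of the RAS family, by 4.28. GSTA1, a glutathione transferase, rose by 4.49, and its close paralog GSTA2 by 3.12, so that the split between them is uncertain.

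**Figure D2:**
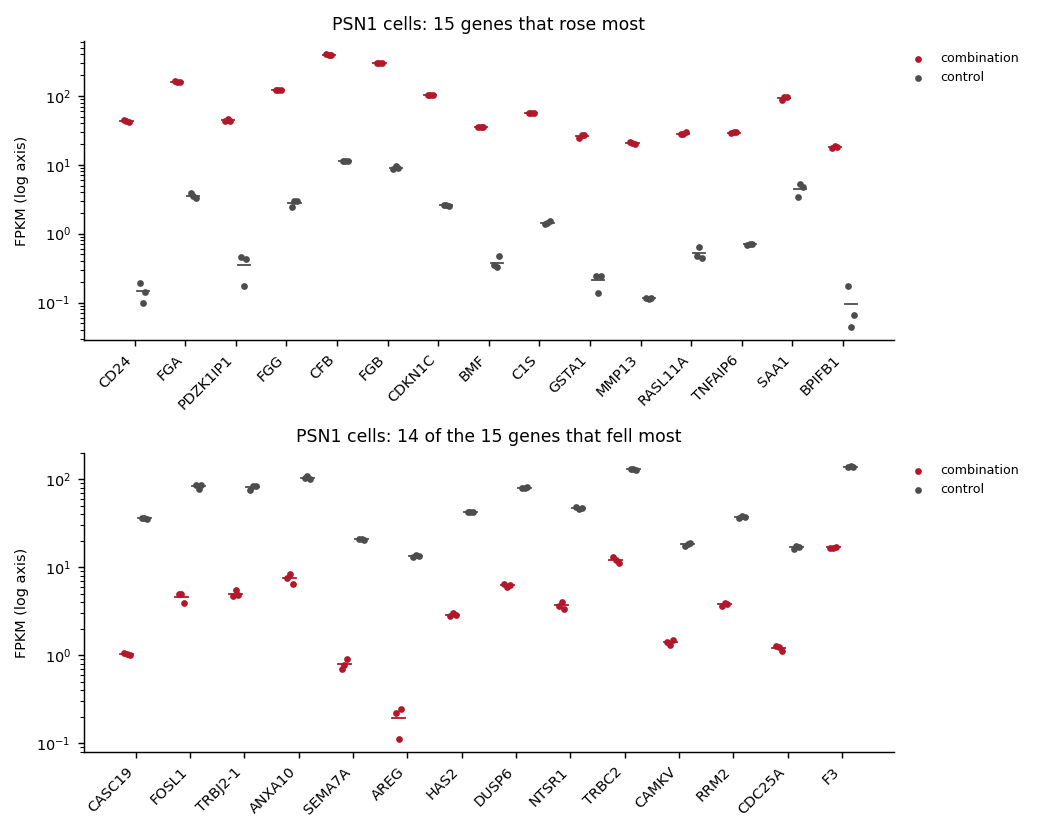
FPKM (log axis) of each PSN1 library for the 15 genes that rose most (upper panel) and 14 of the 15 that fell most (lower panel), with red points for the combination, grey points for control and a line at each mean of 3 libraries. In every gene shown the 3 combination points lie wholly above or wholly below the 3 control points, as the naming rule asks.

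A group of genes was near 0 in control and well expressed with the combination. Under 0.5 FPKM in all 3 control libraries and at 5 FPKM or more in all 3 combination libraries stood 60 genes (0.449% of those tested), and the reverse held for 1 gene (0.00749%), the EGFR ligand AREG. These cut-offs leave no overlap between the arms, so all of these genes had to differ. ALDH1A1, a retinaldehyde dehydrogenase, was at 53.7, 54.9 and 53 FPKM in combination libraries, against 0.0583, 0.0664 and 0 FPKM in control libraries. Its difference of 5.72 ± 0.07 was larger than that of any of the 15 genes above. FDCSP, a small secreted peptide, was at 29.6, 31 and 31.4 FPKM in combination libraries and listed at 0 in every control library. With either drug alone FDCSP was at 0.737 FPKM or less, so it passed the filter only through the combination libraries. ZNF467, a zinc finger protein, averaged 20 FPKM with the combination and 0.0397 FPKM in control. A2M, the plasma protease inhibitor alpha-2-macroglobulin, was at 11.1, 11.4 and 11.6 FPKM in combination libraries and at 0.016 FPKM or less in control libraries. UBD, a ubiquitin-like modifier induced by interferon gamma and TNF, was at 6.25, 6.34 and 6.09 FPKM in combination libraries and listed at 0 in control. ALB, A2M and UBD were picked after their values were seen.

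Antigen presentation by MHC class II, the display of peptides to helper T cells, rose in every gene that could be tested. Of 13 listed genes 12 passed the filter and all 12 rose, 11 of them by 1 log2 unit or more, with a median of 1.83. The filter let 2 of the 12 through although they stayed under 1 FPKM in every control library. HLA-DRA, the alpha chain of HLA-DR, was at 209, 203 and 202 FPKM in combination libraries, against 52.5, 53.9 and 52.4 FPKM in control libraries. It was already well expressed in control, and the combination libraries stood clear of it with a rise of 1.93 ± 0.03 (adjusted p = 3.5e-14). The invariant chain CD74, which guides class II molecules to the endosome, was at 102, 103 and 103 FPKM in combination libraries and 38.8, 37.1 and 37.3 FPKM in control libraries. HLA-DQA1 averaged 4.91 FPKM with the combination and 0.138 FPKM in control, and the peptide-loading chaperone HLA-DMA rose by 1.94. CIITA, the transcriptional coactivator of these genes, rose by 0.88. HLA-DRB5 rose by 2.75 but is a near copy of HLA-DRB1, and reads may be split between them.

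MHC class I genes, which display peptides to cytotoxic T cells, rose less steeply. Of 18 tested, 17 rose and 1 fell, with a median of 0.76. HLA-B was at 190.5, 188 and 191 FPKM in combination libraries and 49.7, 47.2 and 48.3 FPKM in control libraries, a rise of 1.95 ± 0.02 without overlap. HLA-F rose by 1.84, HLA-E by 1.55 and the peptide-loading protein TAPBP by 1.57. The light chain B2M rose by 0.96, to 205 FPKM with the combination against 105 FPKM in control. TAP1 rose by 0.70, while TAP2, the partner of TAP1 in the peptide transporter, fell by 0.55.

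Interferon-stimulated genes rose nearly as a whole. Of 45 tested, 44 rose, 29 of them by 1 log2 unit or more, and none fell, with a median of 1.35. GBP2, an interferon-induced GTPase, averaged 21.6 ± 1 FPKM with the combination and 1.83 ± 0.18 FPKM in control (SD, n = 3 each) and rose by 3.0. CXCL10, a chemokine that draws activated T cells, was at 19.4, 20.5 and 19.5 FPKM in combination libraries, against 1.53, 1.59 and 1.83 FPKM in control libraries. The lowest combination library was far above the highest control library, with a rise of 2.97 ± 0.07 (adjusted p = 2.6e-13). The antiviral enzyme RSAD2 rose by 2.60 and the membrane protein IFITM1, which hinders virus entry, by 2.20. The filter let 7 of the 45 genes through although they stayed under 1 FPKM in every control library.

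Chemokines and cytokines moved both ways, with 19 of 24 tested genes higher and 5 lower (median 0.99). CXCL6, a ligand of the neutrophil receptors CXCR1 and CXCR2, was at 44.4, 43.9 and 42.1 FPKM in combination libraries and 1.62, 2.04 and 1.91 FPKM in control libraries, and rose by 3.96. CXCL1, of the same ligand family, rose by 2.95 to 137 FPKM with the combination, and CXCL8 by 1.08. CCL2, which draws monocytes, averaged 18.7 FPKM with the combination and 0.928 FPKM in control, and the cytokine IL32 rose by 3.15. IL11 and CSF2 (GM-CSF) went the other way and fell by 2.07 and 1.86, LIF fell by 1.01 and IL18 by 1.09. Feedback targets of NF-kB, a transcription factor of inflammation, rose in 15 of 16 (median 1.13), among them the ubiquitin ligase BIRC3 (2.47), the ubiquitin-editing enzyme TNFAIP3 (2.16), NFKBIA (1.85), which holds NF-kB in the cytoplasm, and its nuclear relative BCL3 (1.81). Of 15 checkpoint ligands and other immune surface genes 9 rose and 5 fell (median 0.35). HHLA2, of the B7 family, rose by 1.77, while NT5E (CD73), which makes adenosine, fell by 2.36 and the poliovirus receptor PVR by 1.94.

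**Figure D3:**
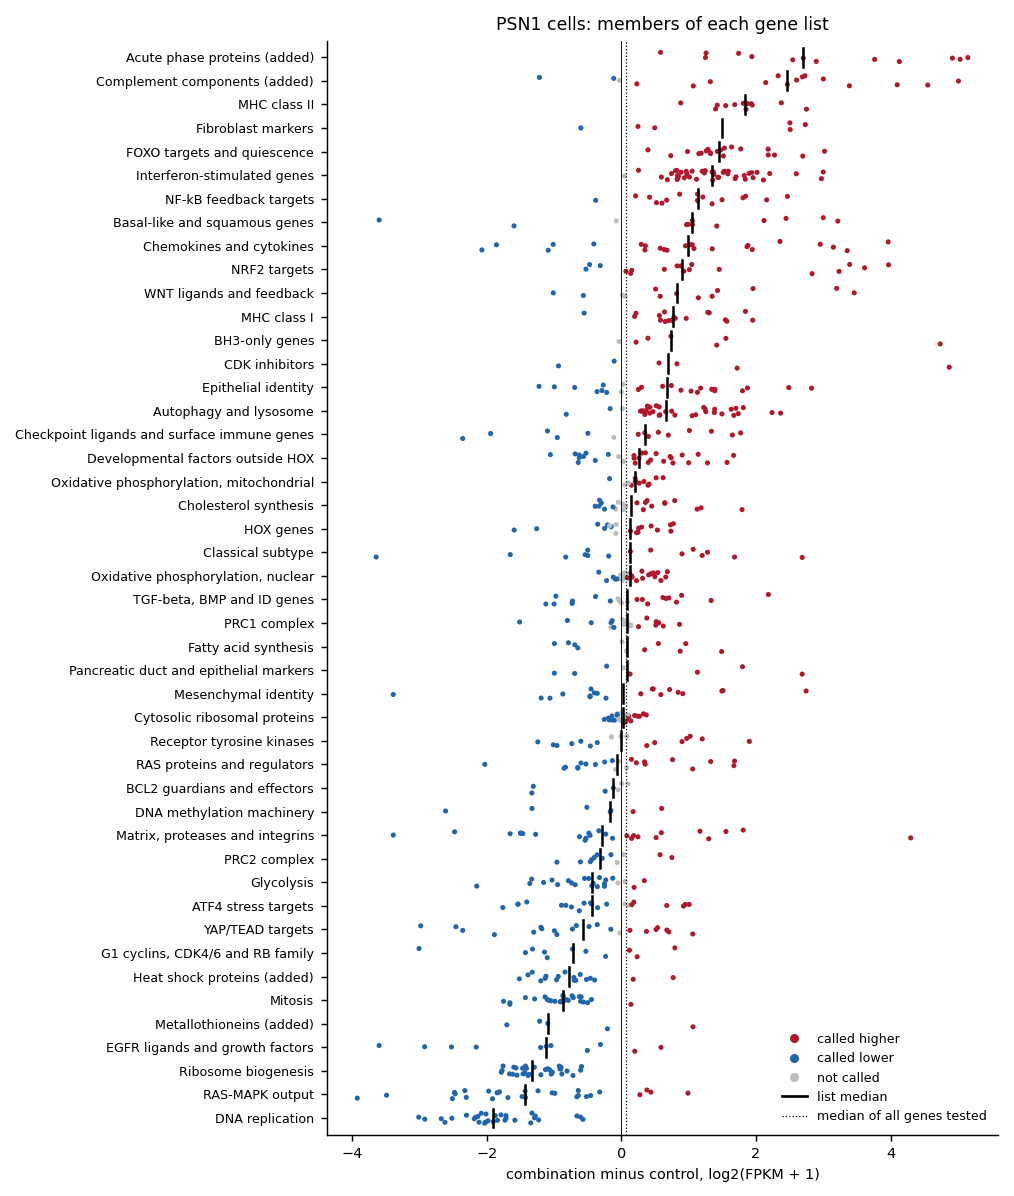
Combination minus control (x axis, log2(FPKM + 1) units) for every tested member of the gene lists with 5 or more tested members, 1 point a gene, red if called higher, blue if called lower and grey if not called. Black bars are list medians and the dotted line is the median of all genes tested, 0.07. Acute phase proteins (2.70), complement components (2.47) and MHC class II (1.83) have the highest medians and DNA replication (-1.90) the lowest.

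Transcripts induced by ERK fell. Of 29 genes in the RAS-MAPK output list 25 fell, 18 of them by 1 log2 unit or more, and 4 rose (median -1.43). DUSP6, a phosphatase that switches off ERK, was at 6.45, 5.94 and 6.29 FPKM in combination libraries, against 80, 79.7 and 80.9 FPKM in control libraries. All combination values lay far below all control values, and DUSP6 fell by 3.49 ± 0.03 (adjusted p = 5.5e-17). FOSL1, which pairs with JUN proteins in AP-1, was at 4.93, 4.96 and 3.90 FPKM in combination libraries and 85.9, 78.5 and 86.8 FPKM in control libraries, and fell by 3.92. The ETS factor ETV4 and the feedback inhibitor SPRY1 changed by -2.48 and -2.51 on the log2 scale. MYC, picked after its value was seen, averaged 49.7 FPKM with the combination and 136 FPKM in control.

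Growth factors and receptors around the pathway were lower more often than higher on the ligand side. Of 19 listed EGFR ligands and related growth factors 11 passed the filter, of which 9 fell and 2 rose (median -1.12). AREG, amphiregulin, was at 0.222, 0.112 and 0.245 FPKM in combination libraries and 13.2, 13.8 and 13.4 FPKM in control libraries, and fell by 3.6. EREG and HBEGF, further EGFR ligands, changed by -2.92 and -2.16, and the lipase inhibitor ANGPTL4 by -2.52. Receptor tyrosine kinases split evenly, with 7 of 17 higher and 7 lower (median -0.01). DDR1, a collagen receptor, rose by 1.90, ERBB3 by 1.20 and ERBB2 by 1.02, while MET fell by 1.24 and EGFR by 1.01. Among 22 RAS proteins and regulators 9 rose and 10 fell (median -0.07). The counts of these receptors and regulators were not far from the shares over all genes tested (45.5% higher, 37.1% lower). The exchange factor SOS1 rose by 1.67 and the small GTPases RRAS and MRAS by 1.68 and 1.33. ERRFI1, an inhibitor of EGFR, was at 17.4, 17.3 and 17.6 FPKM in combination libraries and 73.2, 75.9 and 73.4 FPKM in control libraries, and fell by 2.03 without overlap.

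Several genes of steep fall encode secreted or adhesive proteins. ANXA10, an annexin of gastric-type epithelium, was at 7.49, 8.48 and 6.43 FPKM in combination libraries and 103, 109 and 100.99 FPKM in control libraries. It fell by 3.64 without overlap. F3, tissue factor, which starts coagulation, was at 16.8, 16.5 and 17.1 FPKM in combination libraries, against 138, 141 and 139.9 FPKM in control libraries. It fell by 2.98 ± 0.02 (adjusted p = 1.1e-17), opposite in direction to the fibrinogen chains. SEMA7A, a membrane-anchored semaphorin, fell by 3.61, the hyaluronan synthase HAS2 by 3.49 and the neurotensin receptor NTSR1 by 3.37. CASC19, a long noncoding RNA, fell by 4.18, the largest fall of the 15, and is uncertain, since the sources do not say how strand was counted. TRBC2, a constant segment of the T cell receptor beta locus, was at 13.1, 12 and 11.2 FPKM in combination libraries and 131, 132 and 129 FPKM in control libraries, and the joining segment TRBJ2-1 fell by 3.78. The near copy TRBC1 was at 0.212 to 0.403 FPKM in combination libraries and 2.23 to 2.42 FPKM in control libraries, and TRAC, the constant segment of the alpha chain, at 0 to 0.0247 FPKM with the combination and 0.868 to 1.26 FPKM in control. CD3D, CD3E and PTPRC, which T cells also express, were at 0 in all of these libraries. CD3G was at 0.0106 FPKM or less in combination libraries and at 0 in control libraries. TRBC1, TRAC and CD3G were picked after values were seen, and the source of these transcripts was not tested.

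Genes of DNA replication fell without exception among the 31 tested, 28 of them by 1 log2 unit or more (median -1.90). Of the 31, 4 reached 1 FPKM in all control and in no combination libraries, and so had to differ. RRM2, the regulated subunit of ribonucleotide reductase, was at 3.64, 3.94 and 3.82 FPKM in combination libraries, against 36.7, 38.7 and 37.7 FPKM in control libraries. The groups stood apart, with a fall of 3.01 ± 0.04 (adjusted p = 2.9e-15). The replication factors MCM10 and CDC45 changed by -2.62 and -2.68 and E2F1, a transcription factor of S phase, by -2.92. Mitotic genes fell in 27 of 28 (median -0.87). The kinase CDK1 averaged 6.88 ± 0.33 FPKM with the combination and 23.9 ± 0.14 FPKM in control (SD, n = 3 each), and the kinase AURKB changed by -1.75, cyclin CCNA2 by -1.66 and the motor protein KIF23 by -1.43. KIF20A, another mitotic motor, was the exception and rose by 0.14. In bulk RNA, fewer cycling cells and less of these RNAs per cell cannot be told apart.

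Regulators of the G1 phase shifted in the same libraries. Of 11 G1 cyclins, kinases and RB family genes 8 fell and 3 rose (median -0.73), with log2 differences of -3.01 for the phosphatase CDC25A and -1.43 for cyclin D1, CCND1. Of 6 cyclin-dependent kinase inhibitors 4 rose and 2 fell (median 0.69). CDKN1C (p57) was at 102, 103.5 and 105 FPKM in combination libraries, against 2.59, 2.57 and 2.54 FPKM in control libraries, and rose by 4.87 ± 0.03 without overlap. CDKN1A (p21) rose by 1.72 and CDKN1B (p27) by 0.83, whereas CDKN2D changed by -0.93. Ribosome biogenesis genes fell in 32 of 32 (median -1.33), among them RRP9 (-1.76), BOP1 (-1.78), NOLC1 (-1.77) and the RNA helicase DDX21 (-1.66), all of which serve ribosomal RNA processing. Cytosolic ribosomal protein genes did not share that fall, with 12 of 28 higher, 8 lower and 8 not called (median 0.02, and no change of 1 log2 unit).

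Promoters of apoptosis rose and some guardians fell. Of 7 BH3-only genes tested, whose proteins trigger mitochondrial apoptosis, 6 rose and none fell (median 0.74). BMF was at 35.6, 35.9 and 35.7 FPKM in combination libraries, against 0.346, 0.324 and 0.472 FPKM in control libraries. It was well expressed with the combination and barely detected in control, a rise of 4.74 ± 0.06 (adjusted p = 1.2e-15). BCL2L11 (BIM) rose by 1.55, BBC3 (PUMA) by 1.42 and BIK by 0.74, and PMAIP1 (NOXA) was at 10.6 FPKM with the combination and 10.9 FPKM in control (adjusted p = 0.5). Of 7 BCL2 guardians and effectors 4 fell and none rose (median -0.12). The guardian MCL1 was at 92, 92 and 92.1 FPKM in combination libraries and 231, 235 and 233 FPKM in control libraries, and fell by 1.33, and BCL2L1 (BCL-XL) fell by 1.31. The effectors BAK1 and BAX changed little, by -0.24 and -0.12, and the call for BAX was lost without either of 2 combination libraries or 1 control library.

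Quiescence and catabolic genes rose. All 20 tested genes of the list of FOXO targets and quiescence rose, 17 by 1 log2 unit or more (median 1.45). FOXO factors can drive their targets when growth factor signalling is low, but the list also holds quiescence genes. Whether FOXO factors caused these rises was not tested. CCNG2, an unconventional cyclin, averaged 21.1 ± 0.45 FPKM with the combination and 1.74 ± 0.11 FPKM in control (SD, n = 3 each), and the ubiquitin ligase subunit FBXO32 rose by 2.69, KLHL24 by 2.18 and YPEL5 by 2.27. Autophagy and lysosome genes rose in 32 of 35 (median 0.66). GABARAPL1, which coats autophagosomes, was at 14.4, 14.8 and 15.5 FPKM in combination libraries and 2.19, 2.08 and 1.98 FPKM in control libraries, and rose by 2.37 without overlap. The sialidase NEU1 rose by 2.24, the cholesterol carrier NPC2 by 1.74 and the saposin precursor PSAP by 1.81, while NPC1 fell by 0.82.

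Stress programmes diverged. Of 18 NRF2 targets, genes of detoxification and redox balance, 15 rose and 3 fell (median 0.90). HMOX1, heme oxygenase 1, averaged 44.3 ± 0.84 FPKM with the combination and 3.82 ± 0.26 FPKM in control (SD, n = 3 each), and NQO1 rose by 0.83. The aldo-keto reductases AKR1C1, AKR1C2 and AKR1C3 rose by 3.97, 3.39 and 3.61 and are so alike that reads may be shared. The iron-storing ferritin genes gained among the most FPKM of all: FTH1 was at 2776, 2719 and 2738 FPKM in combination libraries and 715, 709 and 703 FPKM in control libraries, and FTL averaged 5519.8 FPKM with the combination and 2577 FPKM in control. Both have many pseudogene copies, so their counts are less certain. ATF4 targets, genes of amino acid supply, fell in 13 of 21 and rose in 6 (median -0.44), with log2 differences of the amino acid transporters SLC7A5 and SLC1A5 at -1.54 and -1.41, the serine synthesis enzyme PSAT1 at -1.53 and the folate enzyme MTHFD2 at -1.76.

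Heat shock proteins and metallothioneins, in lists drawn up after the values were seen, were mostly lower. Of 18 heat shock genes 16 fell and 2 rose (median -0.77). HSPA8, the constitutive HSP70 chaperone, was at 228, 225 and 223 FPKM in combination libraries and 589.9, 603 and 584 FPKM in control libraries, and fell by 1.39. HSP90AB1 fell by 0.94, while the small chaperone HSPB1 rose by 0.77. MT2A, a metallothionein that binds zinc and copper, was at 318, 324 and 318 FPKM in combination libraries and 1067, 1033 and 1032 FPKM in control libraries. It fell by 1.70 without overlap, and of 5 metallothioneins tested 4 fell and 1 rose (median -1.09). The tubulin gene TUBA1B, another of the largest losses in FPKM, changed by -1.42 on the log2 scale, to 191 FPKM with the combination against 514 FPKM in control.

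Energy and lipid metabolism moved less. Glycolysis genes fell in 19 of 23 and rose in 2 (median -0.44), led by the acid regulator CA9 (-2.15), the lactate carriers SLC16A1 (-1.33) and SLC16A3 (-1.16) and the regulatory enzyme PFKFB4 (-1.36). Nuclear genes of oxidative phosphorylation rose in 17 of 30 and fell in 5 (median 0.13, with NDUFA4, COX5B, COX6C and UQCRB, subunits of the chain, differing by 0.54, 0.66, 0.59 and 0.68). The 13 mitochondrially encoded ones rose in 10 and fell in 1, MT-ND2 (median 0.21), and MT-CO1, MT-CO2 and the ribosomal RNA MT-RNR2 were among the largest gains in FPKM. Cholesterol synthesis genes rose in 11 of 22 and fell in 6 (median 0.15), not far from the shares over all genes tested (45.5% higher, 37.1% lower). INSIG1, a brake on sterol synthesis, rose by 1.79, the cholesterol transfer protein STARD4 by 1.18 and the cyclase LSS by 1.13. Of 11 fatty acid synthesis genes 5 rose and 4 fell (median 0.08), near the shares over all genes tested (45.5% and 37.1%). Log2 differences were 0.87 for the desaturase SCD and -0.99 for the elongase ELOVL6.

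Chromatin regulators moved both ways. Of 12 PRC2 genes 8 fell and 2 rose (median -0.32), none by 1 log2 unit. The paralog EZH1 rose by 0.75 while SUZ12, a core subunit, fell by 0.61. PRC1 genes rose in 8 of 19 and fell in 6 (median 0.09), with log2 differences of -0.80 for PCGF6 and 0.86 for BMI1. The PRC1 counts were near the shares over all genes tested (45.5% higher, 37.1% lower). Of 7 genes of the DNA methylation machinery 5 fell and 2 rose (median -0.16). UHRF1, which brings DNMT1 to replicated DNA, averaged 4.09 ± 0.42 FPKM with the combination and 30 ± 0.34 FPKM in control (SD, n = 3 each), and the maintenance methyltransferase DNMT1 fell by 1.33.

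Developmental regulators, many of them classical polycomb targets, moved both ways. Of 39 listed HOX genes 19 passed the filter, of which 10 rose and 6 fell (median 0.13). That is not far from the shares over all genes tested (45.5% higher, 37.1% lower). HOXB2 and HOXB3 fell by 1.59 and 1.26, and HOXC6 and HOXA7 rose by 0.77 and 0.73. Of 80 other developmental factors 31 passed, with 19 higher and 9 lower (median 0.26). CDX2, an intestinal homeobox factor, averaged 2.23 FPKM with the combination and 0.0156 FPKM in control, MSX2 rose by 1.57, and TFAP2A and FOXD2 changed by 1.28 and 1.14. WNT ligands and feedback genes rose in 9 of the 13 tested of 26 and fell in 2 (median 0.82), but 5 of the 13 passed the filter through the combination arm, with 1 FPKM reached in all of its libraries and in none of the control libraries. WNT4 was at 38.6, 39 and 38.4 FPKM in combination libraries and 2.77, 2.37 and 2.70 FPKM in control libraries, and rose by 3.46. AXIN2, a feedback target of beta-catenin, was at 9.42, 9.22 and 9.15 FPKM in combination libraries and 0.153, 0.0991 and 0.103 FPKM in control libraries, and NKD2 rose by 1.43. Genes of the TGF-beta and BMP pathways rose in 10 of 21 and fell in 7 (median 0.09), near the shares over all genes tested (45.5% and 37.1%). Log2 differences were 2.18 for the decoy receptor BAMBI, 1.33 for the co-receptor TGFBR3 and, for the inhibitors SMAD6 and ID1, -1.12 and -1.0.

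Epithelial and mesenchymal genes moved both ways. Of 34 listed epithelial genes 24 passed the filter, 15 higher and 7 lower (median 0.68). Of these 24, 6 reached 1 FPKM in all combination and in no control libraries, so they passed through the arm in which they are high and had to differ. ELF3, an epithelial ETS factor, was at 20.9, 21.2 and 21.1 FPKM in combination libraries and 2.05, 2.13 and 2.16 FPKM in control libraries, and rose by 2.82. CDH1 (E-cadherin) rose by 1.80, the junction protein TJP3 by 2.49 and EHF by 1.87, but the keratin KRT7 fell by 1.0 and KRT18 by 0.69, while KRT19 rose by 1.13. Mesenchymal genes rose in 10 of 20 and fell in 10 (median 0.03). By 1 log2 unit or more 3 of them rose and 3 fell. Among those that rose were SPARC and MMP2 (1.49 and 2.74) and SNAI2, a repressor of E-cadherin (1.51). Of 6 fibroblast markers tested 5 rose and 1 fell. The one that fell, PDGFRA, was at 2.48 to 2.53 FPKM in combination libraries and 4.27 to 4.39 FPKM in control libraries. COL1A1 was at 10.1 to 10.7 FPKM with the combination and 8.27 to 8.97 FPKM in control, and PDGFRB at 1.03 to 1.33 and 0.498 to 0.610 FPKM. The fibroblast markers LUM and COL3A1, matrix genes, averaged 76.7 and 23.9 FPKM with the combination and 12.7 and 3.39 FPKM in control. DCN was at 6.16 FPKM with the combination and 0.0771 FPKM in control, whereas COL1A2 stayed at 0.0045 FPKM or less and FAP at 0.101 FPKM or less in every library of both arms. The part of these 8 markers in the mesenchymal and matrix values was not tested.

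Tumour subtype genes, matrix genes and YAP targets were mixed. Of 15 classical subtype genes 8 rose and 7 fell (median 0.13). The mucin MUC1 rose by 2.69 and lysozyme, LYZ, by 1.68, while the trefoil peptide TFF2 fell by 1.65. Of 34 listed basal-like and squamous genes 12 passed the filter, 9 higher and 2 lower (median 1.06), and 7 of the 12 stayed under 1 FPKM in every control library. The calprotectin subunits S100A8 and S100A9 averaged 11 and 69.1 FPKM with the combination and 0.295 and 11.9 FPKM in control. Of 26 matrix, protease and integrin genes 15 fell and 11 rose (median -0.28), with the collagen-binding integrin ITGA2 down by 2.48. Targets of YAP and TEAD fell in 14 of 22 and rose in 7 (median -0.58), with log2 differences of -2.46 for ANKRD1 and -1.89 for FJX1.

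The combination was next set against each single drug. Against RMC-6236 alone limma called 7238 genes (54.2%), 3213 higher (24.1%) and 4025 lower (30.1%), and against tazemetostat alone 10676 (79.9%), 5852 of them higher (43.8%) and 4824 lower (36.1%). Higher in the combination than in control and than with either drug were 1857 genes (13.9%), and lower than all 3 were 1841 (13.8%). All 12 tested MHC class II genes, 41 of 45 interferon-stimulated genes, 12 of 18 MHC class I genes and 10 of 16 NF-kB targets were among the higher ones. Of the lists drawn up after seeing values, 11 of 13 acute phase and 12 of 17 complement genes were. Among the lower ones were 27 of 28 mitotic, 26 of 31 DNA replication, 9 of 29 RAS-MAPK and 5 of 32 ribosome biogenesis genes. Of these counts only that of ribosome biogenesis was near the share of 13.8% over all genes tested.

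Single genes show how the arms were ordered. SAA1 averaged 93.7 FPKM with the combination, 9.01 FPKM with RMC-6236, 29.7 FPKM with tazemetostat and 4.47 FPKM in control. HLA-DRA averaged 205 FPKM with the combination, 60.2 FPKM with RMC-6236, 109 FPKM with tazemetostat and 52.9 FPKM in control. The combination was the highest arm for both genes. MMP13 averaged 21 FPKM with the combination, 1.70 FPKM with RMC-6236, 0.486 FPKM with tazemetostat and 0.115 FPKM in control. CD24 averaged 43.2 FPKM with the combination, against 1.06, 4.07 and 0.146 FPKM with RMC-6236, with tazemetostat and in control. The combination level of CD24 was thus 4.43 ± 0.05 log2 units above RMC-6236 and 3.13 ± 0.05 above tazemetostat (adjusted p = 8.9e-15 and 3.3e-14). SPINK1, a trypsin inhibitor, and SLC34A2, a phosphate transporter, were under 1 FPKM in every library of the other 3 arms and averaged 7.66 and 5.67 FPKM with the combination. Both passed the filter only through the combination libraries, so they had to be highest there. The genes counted above as higher than control and either drug include such cases.

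Other genes sat at the level of 1 drug. DUSP6 averaged 6.23 FPKM with the combination, 6.56 FPKM with RMC-6236, 76.4 FPKM with tazemetostat and 80.2 FPKM in control. CDKN1C averaged 103 FPKM with the combination and 100.01 FPKM with RMC-6236, against 7.25 FPKM with tazemetostat and 2.57 FPKM in control. BMF was lower in the combination than with RMC-6236, at 35.8 and 47.7 FPKM (-0.41 ± 0.06, adjusted p = 4.5e-05). F3 averaged 16.8 FPKM with the combination, 69.7 FPKM with RMC-6236, 93.2 FPKM with tazemetostat and 139.6 FPKM in control, and so was lowest with both drugs. Lower than in every other arm too were NTSR1, ERRFI1, the calcium channel ITPR3, the AP-1 subunit FOSB, MPV17L and the pair PCED1B and PCED1B-AS1, which are sense and antisense by name and cannot be told apart without strand.

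In a further set the single drugs stood on opposite sides of control. CXCL8 averaged 44.7 FPKM with the combination, 9.28 FPKM with RMC-6236, 89 FPKM with tazemetostat and 20.6 FPKM in control. MMP1, interstitial collagenase, averaged 14 FPKM with the combination, 1.57 FPKM with RMC-6236, 236 FPKM with tazemetostat and 20.6 FPKM in control. Both genes were highest with tazemetostat alone and lowest with RMC-6236 alone. H19, an imprinted noncoding RNA, averaged 933 FPKM with the combination, 3425 FPKM with RMC-6236, 572 FPKM with tazemetostat and 1233 FPKM in control. Its imprinted neighbour IGF2, picked after its values were seen, averaged 22.4, 90, 41.5 and 52.8 FPKM in the same order of arms.

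**Figure D4:**
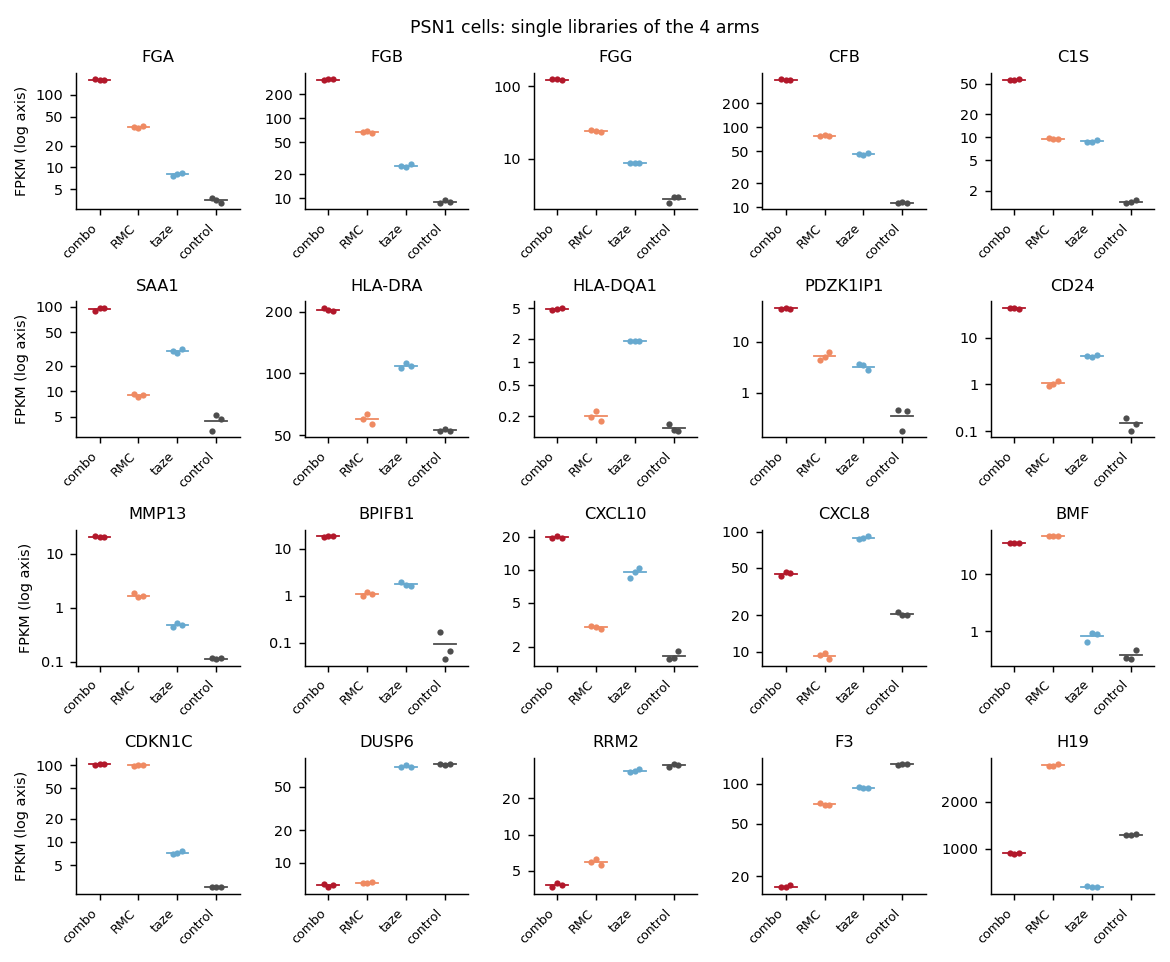
FPKM (log axis, own scale in each panel) of single PSN1 libraries for 20 genes, with the combination (combo), RMC-6236 (RMC), tazemetostat (taze) and control from left to right and a line at each mean of 3 libraries. The combination is the highest arm for FGA (160.1 FPKM), CFB (397 FPKM) and HLA-DRA (205 FPKM), is close to RMC-6236 for CDKN1C and DUSP6, and is the lowest for F3 (16.8 FPKM).

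The same contrast in SW1990 cells used libraries that PSN1 did not share, fitted in their own table. There limma called 10228 of 12913 genes (79.2%), 4948 higher (38.3%) and 5280 lower (40.9%). Of 11547 genes tested in both lines 3297 rose in both, which is 65.4% of the 5045 that rose in PSN1 and 79.4% of the 4153 that rose in SW1990. Another 3492 fell in both, 76.6% of 4559 in PSN1 and 70.7% of 4941 in SW1990. Higher in PSN1 and lower in SW1990 were 735 genes, and 396 the reverse. Across genes, which are not independent replicates, Spearman's rho of the differences was 0.72. By 1 log2 unit or more 8.51% of genes rose and 7.03% fell in SW1990, and 454 genes rose and 396 fell by that much in both lines.

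Named genes of PSN1 varied in how far SW1990 followed. CFB rose by 3.48 in SW1990, BMF by 4.19 and MMP13 by 3.79. DUSP6 and FOSL1 fell by 4.82 and 4.72 in SW1990. ALDH1A1, CD24 and SAA1 rose there by 1.63, 1.94 and 0.61, against 5.72, 5.27 and 4.13 in PSN1. ALDH1A1 averaged 2.14 FPKM with the combination and 0.0167 FPKM in SW1990 control, so low that the added 1 shrinks its difference. CD24 averaged 60 FPKM with the combination and 14.9 FPKM in SW1990 control. HLA-DRA rose by 3.53 in SW1990 and 1.93 in PSN1. RASL11A was at 1.22 FPKM with the combination and 0.985 FPKM in SW1990 control (adjusted p = 0.2). The differences between the lines were not tested.

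**Figure D5:**
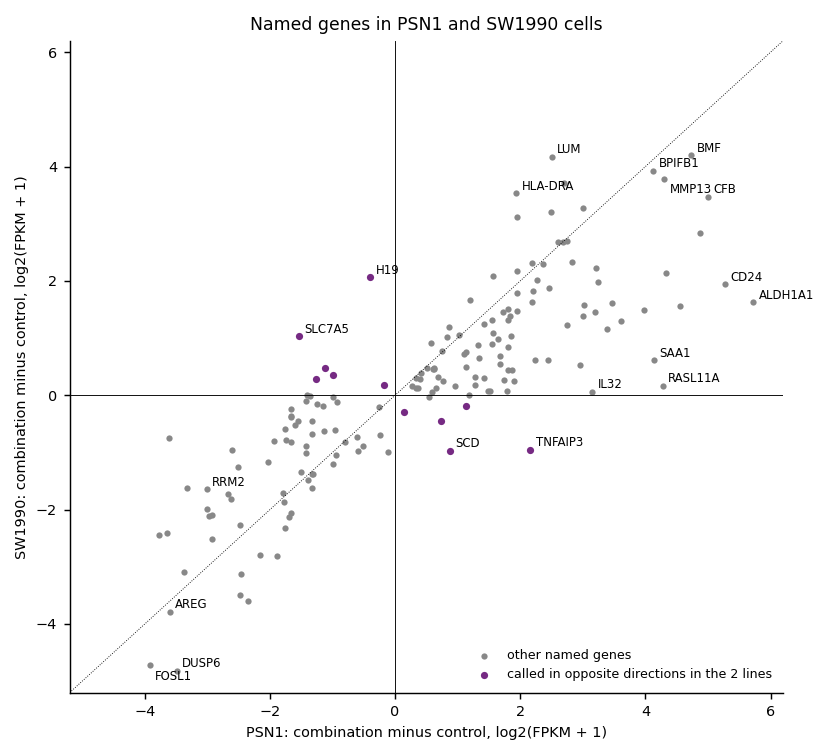
Combination minus control in PSN1 cells (x axis) and SW1990 cells (y axis), both in log2(FPKM + 1) units, for named genes tested in both lines, 1 point a gene, with a dotted line where both are equal. Purple points are the 11 shown genes called in opposite directions, such as H19 (-0.40 in PSN1 and 2.06 in SW1990) and TNFAIP3 (2.16 and -0.95).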

How the data were processed

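Total RNA of PSN1 cells was made into stranded mRNA libraries and sequenced on an Illumina NovaSeq, per the labels' protocols. The submitters' processing notes name FastQC 0.11.2, STAR 2.5.3a, StringTie 1.3.1c and build hg38, with no role given, and neither the annotation nor the strand used in counting is stated. FPKM values came in 1 table for each cell line, deposited by the authors and normalised for gene length and library size as the unit implies, and these were used as deposited. Depth cannot be read from FPKM, so precision comes only from the spread between libraries.

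Values were taken to log2(FPKM + 1) with a pseudocount of 1. The rule's "3 or more of the libraries" was read as any of the 12 PSN1 libraries. limma 3.58.1 in R 4.3.3 (statmod 1.5.0) fitted 1 mean per arm over 4 arms of 3 libraries, with eBayes trend and robust options. Two-sided p-values were adjusted by Benjamini-Hochberg across all 13358 genes for each contrast, with a threshold of 0.05. SW1990 was fitted the same way in its own table, and levels were not compared between tables. The procedure was tested on simulated data. Figures were drawn with matplotlib 3.10.9. The columns used were all mapped by name, and 0 pairs were identical.

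The comparison, 44 gene lists and the naming rule were chosen with earlier results of these data known, and 4 more lists (acute phase proteins, complement components, heat shock proteins, metallothioneins) were drawn up after the values were seen. Named genes are EZH2 and RAS genes, the 15 that rose and 15 that fell most (called, no overlap, higher mean at least 5 FPKM, no library at 0), up to 8 near 0 in 1 arm, 8 in each direction beyond both drugs, up to 4 called members of each list and the 6 largest FPKM changes in each direction. Some genes that meet the rule are not reported here. Other members of lists were named after their values were seen. Alternatives were a pseudocount of 0.1, no filter, a filter over the 6 compared libraries, median-ratio rescaling, a replicate block, plain eBayes, only the compared arms, and leaving out each library.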

Additional observations from a re-analysis of the deposited data

Results flagged for a closer look

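Among the named genes, 11 reported here were called in opposite directions in PSN1 and SW1990 cells, with no overlap between combination and control libraries in either line. The difference between the lines was not tested. Values are combination minus control in log2(FPKM + 1) units, with PSN1 minus SW1990 as the gap. TNFAIP3, a brake on NF-kB, had 2.16 in PSN1 and -0.95 in SW1990, a gap of 3.11. SLC7A5, an amino acid transporter, had -1.54 in PSN1 and 1.03 in SW1990, a gap of -2.57. H19, an imprinted noncoding RNA, had -0.40 in PSN1 and 2.06 in SW1990, a gap of -2.47.

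Of the genes of lipid synthesis, the desaturase SCD had 0.87 in PSN1 and -0.98 in SW1990 (gap 1.85) and the sterol cyclase LSS 1.13 and -0.19 (gap 1.32). The apoptosis gene BIK had 0.74 in PSN1 and -0.45 in SW1990 (gap 1.19), and NRAS 0.15 and -0.29 (gap 0.44). In the reverse direction SMAD6 had -1.12 in PSN1 and 0.48 in SW1990 (gap -1.61), HOXB3 -1.26 and 0.28 (gap -1.54), ID1 -1.0 and 0.36 (gap -1.36) and MT-ND2 -0.18 and 0.18 (gap -0.36).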

How the results depend on the processing

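Without a filter on low values limma called 9725 genes higher with the combination, against 6079 as reported, and 2963 higher than in every other arm, against 1857, because 33318 genes were then tested. With a pseudocount of 0.1 the genes past 1 log2 unit were 2185 higher and 1171 lower, against 1360 and 808. Calls over the other settings ranged from 10696 to 11046, and leaving out 1 library gave 10510 to 10735, with 5698 to 5927 higher and 4807 to 4830 lower. Genes beyond both drugs then numbered 3196 to 3659, with 1514 to 1856 higher and 1667 to 1806 lower. Replicate numbers did not pair the libraries (correlations of deviations 0.16, -0.03 and 0.07), and a replicate block gave 10994 calls, 6067 higher and 4927 lower.

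Of 207 named results 200 to 207 could be computed under each setting, and none of those reversed. BAX lost its call with no filter (adjusted p = 0.051), without combination library 1 (0.053) or 2 (0.082) and without control library 1 (0.074), and CD14 without combination library 3 (0.057). List medians moved by up to 1.60 with a pseudocount of 0.1, where that of basal-like genes was 2.66 against 1.06, and by up to 1.13 with no filter, where that of fibroblast markers was 0.37 against 1.499. The median of the HOX list was -0.08 with the filter over the compared libraries, and that of receptor tyrosine kinases changed sign without combination library 1 (0.03) or control library 2 (0.01) and with no filter (0.05). With no filter 2 more lists changed sign: endothelial markers (0.00347, against -1.10) and leukocyte markers (0, against -0.19). Each had 1 gene tested as reported, and without the filter members near 0 entered the medians. Depth is unknown, so low genes rest on the spread between 3 libraries.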

Other observations

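The leukocyte marker CD14, a lipopolysaccharide co-receptor, fell by 0.19 log2 units, and the endothelial marker KDR, a VEGF receptor, fell by 1.10. These 2 were the tested members of their marker lists of 8 and 7 genes.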
